A study of Mus musculus with 29 samples.

Results

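The genes described here are 10 members of the mouse LIM family that act in transcription, out of 24062 genes in the RNA-seq table. They are the LIM-homeodomain factors Isl1, Isl2, Lhx2, Lhx3, Lhx4 and Lhx9, the LIM domain-binding cofactors Ldb1 and Ldb2, and the LIM-only proteins Lmo2 and Lmo4. Each was found in the table by its symbol, and 9 of the 10 passed the filter on low counts. Lhx9 did not pass it. They were listed by name and family, with earlier results of these data known.

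LIM-homeodomain factors bind DNA through a homeodomain and carry LIM domains, zinc-coordinating modules that bind other proteins. LDB proteins dimerize and bind the LIM domains, so that they join LIM-homeodomain factors into larger complexes. LMO proteins consist of LIM domains without a homeodomain and compete for the same LDB surface or bridge LDB to other DNA-binding proteins. In the retina, Isl1 and Lhx4 are known as factors of bipolar cell development. Bipolar cells are the interneurons that carry photoreceptor signals to the inner retina, as ON types that respond to light onset and OFF types that respond to light offset.

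RNA-seq was available for 15 libraries, 3 each of pan-BC (all bipolar cells), ON-BC, OFF-BC, rods and blue cones. Bipolar cells came by FACS from mice with a GFP cassette knocked into Otx2, which gives bright cells in the bipolar class and dim photoreceptors. The pan-BC RNA libraries were from Otx2-GFP+/- mice aged postnatal day 44 or 47, and each pooled the retinas of 1 mouse. The ON-BC and OFF-BC RNA libraries were from Otx2-GFP+/-; Grm6-YFP+/+ mice aged postnatal day 42, 43 or 48, and each pooled the retinas of 2 mice. The Grm6 promoter drives YFP in ON-BCs, OFF-BCs were sorted a second time, and BC5D, an ON type with little Grm6, was left out of both gates by the study. Rods (Nrl-eGFP) and blue cones (Nrl-eGFP on an Nrl-/- background, in which rod precursors become blue-cone-like photoreceptors) were postnatal day 56 libraries that the laboratory had made for previous work. Cell class, study and age therefore cannot be told apart between bipolar cells and photoreceptors. ATAC-seq, which reads open chromatin by transposase insertion, covered the same 5 populations and green cones (Opn1mw-GFP), with 2 libraries each. The ATAC-seq bipolar libraries were all labelled Otx2-GFP+/-; Grm6-YFP+/+ and were aged postnatal day 42 to 46, and those of photoreceptors postnatal day 56. For the pan-BC ATAC-seq libraries the study's sample lists conflict, 1 giving Grm6-YFP+/+ as the labels do and 1 giving no YFP allele.

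RNA levels are given as normalized counts, that is, read counts divided by a size factor for the library. RNA depth was 12329548 to 26266746 reads, and ATAC-seq depth over the 110715 regions of the table was 4176776 to 12345845 reads. A gene or region is described as higher or lower where limma's test against a log2 fold change of 1 gave an adjusted p under the 0.05 threshold. All other differences are given as values. The p-values and intervals measure the spread between libraries within a level of the fit, pooled for each gene or region over all levels. Each population was 1 level, except that blue and green cones together were 1 level in the ATAC-seq fit. Differences between blue and green cones therefore enter the spread used in every ATAC-seq comparison. In bulk samples, fewer cells of a type and less RNA per cell cannot be told apart.

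The ON and OFF markers separated the sorted bipolar classes. Summed over 4 ON markers, ON-BC had 77600.4 to 89661 normalized counts and OFF-BC 6492.5 to 9732, and 3 of the 4 passed the test. Of the 4 OFF markers, 3 were higher in OFF-BC, and Vsx1 was the exception, at 847.5 to 1049 in ON-BC and 175.5 to 351 in OFF-BC. OFF-BC replicate 3 stood apart from the other 2 OFF-BC libraries. Its Grm6, the glutamate receptor of ON-BCs, was 593 against 145 and 64.9 normalized counts, and its Opn1sw, the blue cone opsin, was 55813 against 4477 and 4314. Each ON-BC versus OFF-BC value below is therefore also given without it where a result rests on it. Of 5 general bipolar markers, 4 were higher in pan-BC than in rods but 2 higher than in blue cones, and their sum was 186386 to 209585 in pan-BC against 244299.5 to 255618 in blue cones, where Gnb3, a G-protein subunit of cones and ON-BCs, averaged 215434.5. Summed rod markers were 19855 to 25016 in ON-BC and 3539 to 17852 in OFF-BC, and summed cone markers were 5096 to 5875 and 29863 to 103902, against 1750640 to 2409811 for rod markers in rods and 1429137 to 1653139 for cone markers in blue cones.

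The sequences below are the accessible regions that the results on chromatin turn on, read from the GRCm38.p6 genome on the plus strand. Promoter regions are shown only up to the base before the transcription start. Capitals mark TAATCC or its reverse complement GGATTA (the letters preferred by OTX2 and CRX), the letters TAATTA and also TAATTG or its reverse complement, CAATTA (all preferred by LIM-homeodomain and many other homeodomains), and CANNTG (the E-box of basic helix-loop-helix proteins). Both strands were searched, and matches may overlap. The Isl1 promoter (chr13:116309689-116309864, immediately before the start of Isl1) and a region centred at -9825 bp from that start (chr13:116319413-116319613) are shown because both were far more open in ON-BC than in OFF-BC. The Isl2 promoter (chr9:55541003-55541148) is shown as a region open in cones and weak elsewhere. The Lhx4 region (chr1:155655007-155655207, in an intron of the neighbouring gene Acbd6) was the only one of their regions that passed the test as lower in ON-BC. The Lmo4 region (chr3:144166724-144166924, outside curated RefSeq transcripts) and the Ldb2 region (chr5:44769609-44769809, in an intron of Ldb2) were open in ON-BC and nearly without reads in OFF-BC.
Isl1 promoter: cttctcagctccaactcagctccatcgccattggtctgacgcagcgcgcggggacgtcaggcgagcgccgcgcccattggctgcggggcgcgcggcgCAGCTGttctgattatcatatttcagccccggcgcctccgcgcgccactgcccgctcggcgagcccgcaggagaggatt
Isl1 upstream region: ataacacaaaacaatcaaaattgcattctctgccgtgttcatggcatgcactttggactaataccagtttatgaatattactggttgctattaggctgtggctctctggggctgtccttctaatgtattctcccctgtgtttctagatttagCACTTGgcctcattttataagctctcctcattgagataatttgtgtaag
Isl2 promoter: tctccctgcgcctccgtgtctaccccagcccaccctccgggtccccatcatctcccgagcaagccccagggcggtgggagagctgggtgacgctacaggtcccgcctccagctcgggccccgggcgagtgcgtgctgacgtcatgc
Lhx4 region: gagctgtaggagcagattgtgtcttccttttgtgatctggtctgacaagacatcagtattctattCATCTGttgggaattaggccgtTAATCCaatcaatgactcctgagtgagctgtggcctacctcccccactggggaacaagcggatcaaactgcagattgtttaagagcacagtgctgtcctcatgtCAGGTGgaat
Lmo4 region: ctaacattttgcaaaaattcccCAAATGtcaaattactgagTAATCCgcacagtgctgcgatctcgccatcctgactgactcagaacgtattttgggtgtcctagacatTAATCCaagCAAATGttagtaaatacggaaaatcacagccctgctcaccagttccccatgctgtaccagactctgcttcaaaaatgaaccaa
Ldb2 region: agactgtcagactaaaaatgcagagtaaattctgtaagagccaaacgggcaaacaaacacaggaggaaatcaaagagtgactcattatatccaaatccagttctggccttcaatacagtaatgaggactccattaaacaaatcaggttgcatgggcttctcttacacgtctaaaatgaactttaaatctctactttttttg
These printed stretches of the Isl2 promoter and the Ldb2 region held none of the 4 motifs. The Lmo4 region held 2 TAATCC matches and 2 E-boxes, and the Lhx4 region 1 TAATCC match and 2 E-boxes.

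Among the members, Isl1, Lmo4, Lhx4 and Ldb2 had the highest levels per exon length in ON-BC, but in OFF-BC Lmo4 came sixth. In ON-BC the mean was 670.8 RPKM (reads scaled by exon length and library size) for Isl1, 120.2 for Lmo4, 109.0 for Lhx4, 54.7 for Ldb2, 17.5 for Lhx3 and 13.5 for Ldb1. Isl1 held rank 64 among 22511 genes by RPKM in ON-BC. In OFF-BC the order of mean RPKM changed to 293.1 for Lhx4, 53.3 for Ldb2, 29.7 for Lhx3, 15.7 for Isl1, 12.6 for Ldb1 and 8.80 for Lmo4. Lhx4 held rank 261 in OFF-BC, where Isl1 held rank 3953. In rods the highest mean of any member was 3.54 RPKM, for Lmo4. In blue cones Lhx4 reached 15.3 RPKM, and Lmo4 followed at 4.84.

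**Figure D1:**
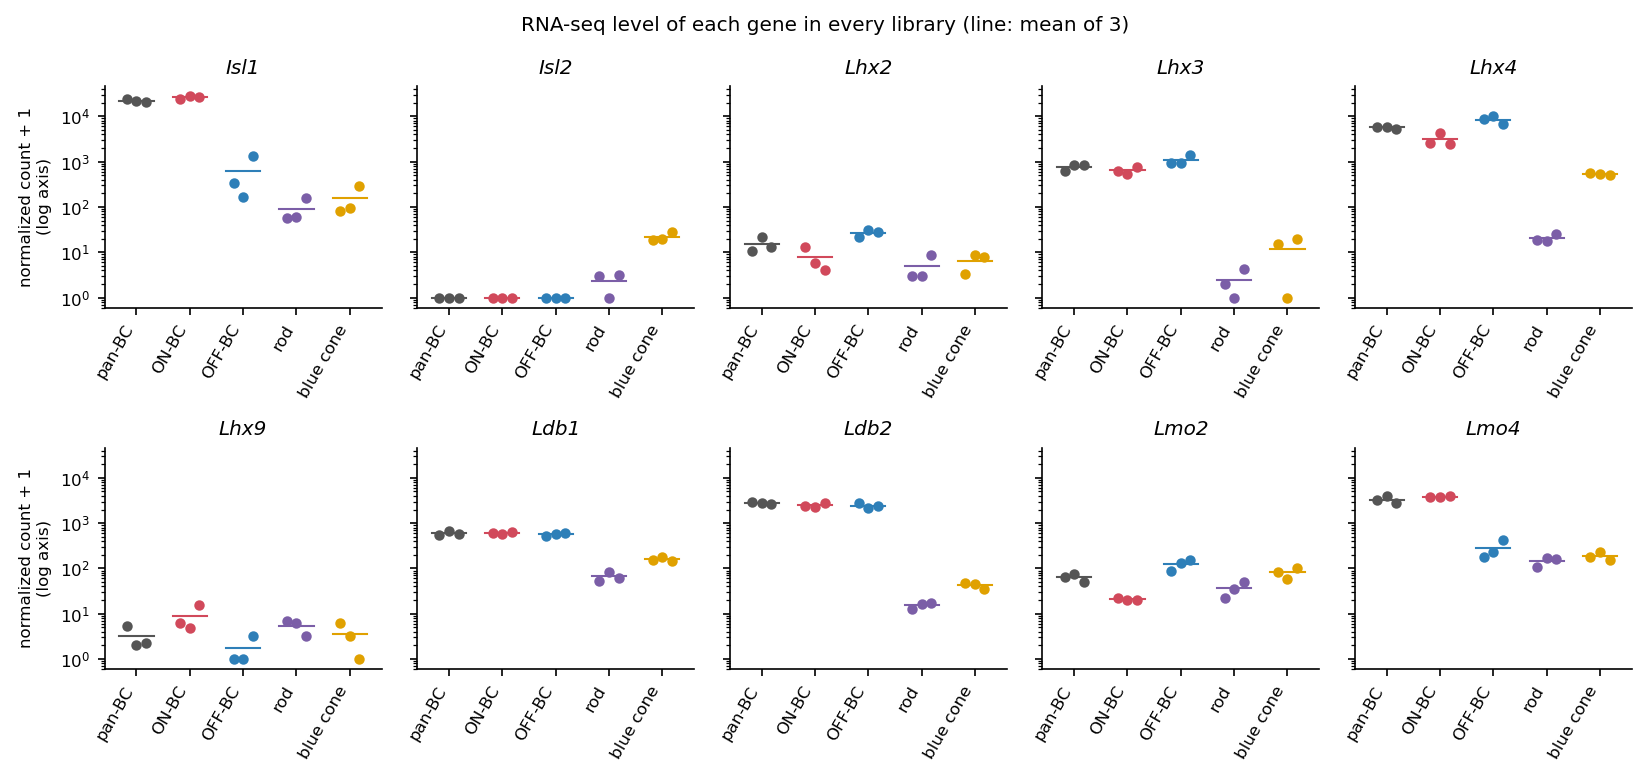
Normalized count plus 1 (log axis) of the 10 LIM genes in each of the 15 RNA-seq libraries, by population, with points for libraries and lines for means. Isl1 and Lmo4 dropped in OFF-BC, Lhx4 kept a level of 511 to 561 in blue cones, and Isl2 had counts above 3 only in blue cones.

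Isl1 (chr13:116298270-116309688, minus strand) separated the ON and OFF classes by the widest margin of the members. Its normalized counts were 24419, 28016 and 26357 in the 3 ON-BC libraries and 343, 162 and 1329 in the 3 OFF-BC libraries. The pan-BC libraries, at 24003, 21506 and 20848, lay just under ON-BC without overlap, and the mean was 84.2% of that of ON-BC. Isl1 was 42.96-fold higher in ON-BC than in OFF-BC (26264 ± 1800.1 against 611 ± 628, SD, n = 3), a log2 difference of 5.96 (SE 0.58, 95% confidence interval 4.74 to 7.19, adjusted p = 8.04e-06). Without OFF-BC replicate 3, the highest OFF-BC library, the log2 difference was 6.79 (adjusted p = 3.05e-07), and without OFF-BC replicate 2, the lowest, it was 5.28 (adjusted p = 4.59e-05). The OFF-BC mean of Isl1 was 2.33% of the ON-BC mean, against 1.98% for Grm6, 7.2% for Gpr179, 11.1% for Trpm1 and 17.4% for Nyx among the ON markers, and 2.57% for Car8, 2.85% for Prkca and 4.64% for Sebox among markers of rod bipolar cells, the ON type of the rod pathway. OFF-BC replicate 3 was the highest of its group in Isl1, in Grm6 and in Prkca (533 against 105 and 66.1). The part of admixed ON-BCs in the OFF-BC level of Isl1 was not tested.

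Photoreceptors held little Isl1. Rod libraries had 56.3, 60.4 and 153.5 normalized counts and blue cone libraries had 81.2, 93.3 and 291. These ranges overlap each other, and the blue cone range overlaps that of OFF-BC. Isl1 was 245.6-fold higher in pan-BC than in rods (log2 difference 8.08, SE 0.58, adjusted p = 6.55e-09) and 142.6-fold higher than in blue cones (7.39, adjusted p = 4.61e-08). The third library of each photoreceptor group was the highest in Isl1 and also in Grm6 (rods 39.8, 51.2 and 113.5, blue cones 68.4, 130 and 175). The part of admixed bipolar cells in these Isl1 counts was not tested.

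Isl2 (chr9:55538677-55547667, plus strand), the close relative of Isl1 known from motor neurons and ganglion cells, was the only member that passed the test as higher in blue cones than in pan-BC. It had 0 reads in all 9 bipolar libraries, 1.94, 0 and 2.16 normalized counts in rods, and 17.3, 19.0 and 27.4 in blue cones. Every blue cone library was above every rod library. Blue cones (21.2 ± 5.41, SD, n = 3) were 15.52-fold higher than rods (1.37 ± 1.19), a log2 difference for rods minus blue cones of -3.37 (SE 0.52, adjusted p = 0.00143). DESeq2 on the recovered reads gave -3.96 for the same difference, with adjusted p = 0.13. Against pan-BC, blue cones were at least 5.78-fold higher, with the pan-BC level set to the floor of 3 counts per library. The level in blue cones was still low, at 0.603 RPKM from 85 reads in all. Only the blue cone libraries, with 23, 25 and 37 reads, carried Isl2 through the filter on low counts. Its calls against rods and pan-BC therefore use the values that admitted the gene to the test.

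Lhx2 (chr2:38339271-38369737, plus strand), known in the adult retina as a factor of Müller glia, was low in every population. OFF-BC libraries had 21.2, 30.0 and 26.5 normalized counts, ON-BC 12.4, 4.90 and 3.08, and pan-BC 9.57, 20.2 and 12.2. OFF-BC stood above the other populations without overlap, but the log2 difference of ON-BC minus OFF-BC, -1.96 (SE 0.56, 95% confidence interval -3.14 to -0.78), did not pass the test (adjusted p = 0.519). Rods had 1.94 to 7.57 and blue cones 2.26 to 7.59. Summed over 7 markers, Müller glia genes were also highest in OFF-BC, at 2687 to 3636 against 1257 to 1494 in ON-BC, 1956 to 2588 in pan-BC, 1019 to 1607 in rods and 1840 to 3227 in blue cones. The list did not move as a whole, since 1 of the 7 passed between ON-BC and OFF-BC and the median log2 difference of ON-BC minus OFF-BC was 0.38, opposite in sign to that of the sum. The 1 was Sox9, a transcription factor, with means of 25.1 in ON-BC and 1400.4 in OFF-BC (-5.82, SE 0.32, adjusted p = 2.33e-08). None of the 7 was at 0 in any population. Their part in the Lhx2 counts was not tested.

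Lhx3 (chr2:26200212-26208249, minus strand) was present in all 9 bipolar libraries and nearly absent from photoreceptors. ON-BC had 632.5, 545 and 765 normalized counts, OFF-BC 922.1, 921.5 and 1425, and pan-BC 610.5, 845 and 837. The ON-BC and OFF-BC libraries did not overlap, yet the log2 difference of ON-BC minus OFF-BC was -0.73 (SE 0.78, 95% confidence interval -2.38 to 0.91, adjusted p = 1.0). That SE pools the spread within every population, including photoreceptor libraries at or near 0. It does not measure the spread within ON-BC and OFF-BC alone. In rods Lhx3 had 0.970, 0 and 3.24 normalized counts, and pan-BC was 544.3-fold higher (log2 difference 8.54, SE 0.78, adjusted p = 1.29e-07). Blue cones had 14.3, 0 and 18.5, so 2 libraries were above all rods and the third was at 0. Pan-BC was 69.92-fold higher than blue cones (6.82, adjusted p = 4.52e-06), with log2 differences of 7.42, 5.45 and 7.6 when blue cone replicate 1, 2 or 3 was left out. Rods minus blue cones gave -1.72 (adjusted p = 0.736), and -3.09 (adjusted p = 0.00112) without blue cone replicate 2, the library at 0.

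Lhx4 (chr1:155698031-155751726, minus strand), the closest relative of Lhx3, was the only member for which no 2 populations next to each other in level overlapped. OFF-BC had 8534, 9971 and 6657 normalized counts, pan-BC 5679.9, 5954 and 5385, ON-BC 2566, 4363 and 2399.9, blue cones 561, 539 and 511, and rods 17.5, 16.4 and 24.9. Blue cones (537 ± 24.9, SD, n = 3) were 27.44-fold above rods (19.6 ± 4.61), with a log2 difference for rods minus blue cones of -4.73 (SE 0.2, adjusted p = 8.94e-11). Pan-BC was 289.9-fold higher than rods (8.13, adjusted p = 1.45e-14) and 10.56-fold higher than blue cones (3.4, adjusted p = 1.64e-08). OFF-BC was 2.697-fold above ON-BC, a log2 difference of ON-BC minus OFF-BC of -1.47 (SE 0.2, 95% confidence interval -1.89 to -1.04) that did not pass the test against 1 (adjusted p = 0.196). It passed without ON-BC replicate 2, the highest ON-BC library (-1.74, adjusted p = 0.00708), but not without OFF-BC replicate 3 (-1.62, adjusted p = 0.0756), and it passed against no change (adjusted p = 2.95e-05). It also passed with a replicate block over ON-BC and OFF-BC alone, though same-numbered libraries are not known to be paired. As fractions of pan-BC, the blue cone levels of Isl1 and Lhx4 stood apart, 142.6-fold down for Isl1 and 10.56-fold for Lhx4.

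Lhx9 (chr1:138825186-138848839, minus strand), a factor of amacrine cell subsets, was at or near the floor throughout. Summed over the 3 libraries of a population it had 23 reads in ON-BC, 2 in OFF-BC, 6 in pan-BC, 10 in blue cones and 13 in rods. Its highest value was 14.4 normalized counts, in ON-BC replicate 3, and ON-BC (3.92 to 14.4) did not overlap OFF-BC (0 to 2.21), whereas pan-BC overlapped rods and blue cones. No difference of Lhx9 was tested.

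The cofactors Ldb1 and Ldb2 were higher in bipolar cells than in photoreceptors and differed little between the ON and OFF classes, by the intervals given here. Ldb1 (chr19:46031525-46048145, minus strand) had 541, 687 and 582 normalized counts in pan-BC, 593, 574 and 648 in ON-BC, and 511, 567 and 612 in OFF-BC, and these ranges overlapped. Rods had 52.4, 83.0 and 61.6 and blue cones 150, 182 and 147, without overlap. Pan-BC was 9.193-fold higher than rods (log2 difference 3.2, SE 0.17, adjusted p = 2.73e-09) and 3.774-fold higher than blue cones (1.91, adjusted p = 0.000136). For ON-BC minus OFF-BC the log2 difference of Ldb1 was 0.11 (95% confidence interval -0.25 to 0.46).

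Ldb2 (chr5:44435955-44799759, minus strand) showed the steeper contrast of the 2 cofactors. Its normalized counts were 2865.5, 2774 and 2661 in pan-BC, 2443, 2287 and 2751 in ON-BC, and 2828, 2105 and 2360.3 in OFF-BC. Rods had 11.6, 15.4 and 16.2 and blue cones 45.9, 44.8 and 34.8. Pan-BC was 192.1-fold higher than rods (log2 difference 7.5, SE 0.15, adjusted p = 2.82e-15) and 66.18-fold higher than blue cones (6.02, adjusted p = 1.99e-13). The log2 difference of ON-BC minus OFF-BC was 0.04 (95% confidence interval -0.28 to 0.37). Blue cones were 2.902-fold above rods (rods minus blue cones -1.48, SE 0.15, adjusted p = 0.0236). That last call was lost without rod replicate 1 (adjusted p = 0.126), blue cone replicate 1 (0.0744) or blue cone replicate 2 (0.0834), with a pseudocount of 8 (0.744) and in DESeq2 (0.279). Per exon length, Ldb2 was above Ldb1 in pan-BC (60.5 against 13.4 RPKM) and below it in rods (0.246 against 1.13 RPKM).

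Lmo4 (chr3:144188530-144205255, minus strand) followed Isl1. ON-BC libraries had 3849.9, 3728 and 3892 normalized counts and OFF-BC libraries 179.9, 232 and 420.4. Pan-BC, at 3295, 3887 and 2766, overlapped ON-BC. Lmo4 was 13.78-fold higher in ON-BC (3823 ± 84.9, SD, n = 3) than in OFF-BC (277 ± 126.5), a log2 difference of 3.87 (SE 0.25, 95% confidence interval 3.34 to 4.41, adjusted p = 3.73e-07), and 4.22 (adjusted p = 3.77e-08) without OFF-BC replicate 3. The OFF-BC mean was 7.26% of the ON-BC mean, against 1.98% to 17.4% for the 4 ON markers. Rods had 105, 168 and 162 and blue cones 182, 232 and 149, both overlapping each other, and the blue cones overlapping OFF-BC. Pan-BC was 22.88-fold higher than rods (4.52, adjusted p = 1.29e-09) and 17.67-fold higher than blue cones (4.15, adjusted p = 1.14e-08).

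Lmo2 (chr2:103957903-103981878, plus strand), best known as the bridge of a blood-forming transcription complex, ran the other way. ON-BC libraries had 21.7, 19.6 and 19.5 normalized counts and OFF-BC libraries 86.1, 133 and 154.5. It was 6.154-fold higher in OFF-BC, a log2 difference for ON-BC minus OFF-BC of -2.52 (SE 0.33, 95% confidence interval -3.23 to -1.82, adjusted p = 0.00351), and -2.35 (adjusted p = 0.0237) without OFF-BC replicate 3. Pan-BC lay between them at 63.8, 75.7 and 50.2. Rods had 21.4, 34.8 and 49.7 and blue cones 82.7, 58.4 and 104, and neither comparison of pan-BC with photoreceptors passed the test (log2 differences 0.88 and -0.34, adjusted p = 1.0 for both). Cell types outside the sorted classes also express Lmo2. Summed over 7 endothelial markers, ON-BC had 40.2 to 54.9 and OFF-BC 23.2 to 54.1 normalized counts, with Tie1 at 0 in both, Cldn5 at 0 in ON-BC and Cdh5 at 0 in OFF-BC. Over 6 microglia markers, ON-BC had 27.7 to 46.4 and OFF-BC 55.9 to 174. None of the 3 endothelial and 1 of the 5 microglia markers that could be tested passed, the latter lower in ON-BC, with median log2 differences of -0.55 and -1.46. Their part in the Lmo2 counts was not tested.

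**Figure D2:**
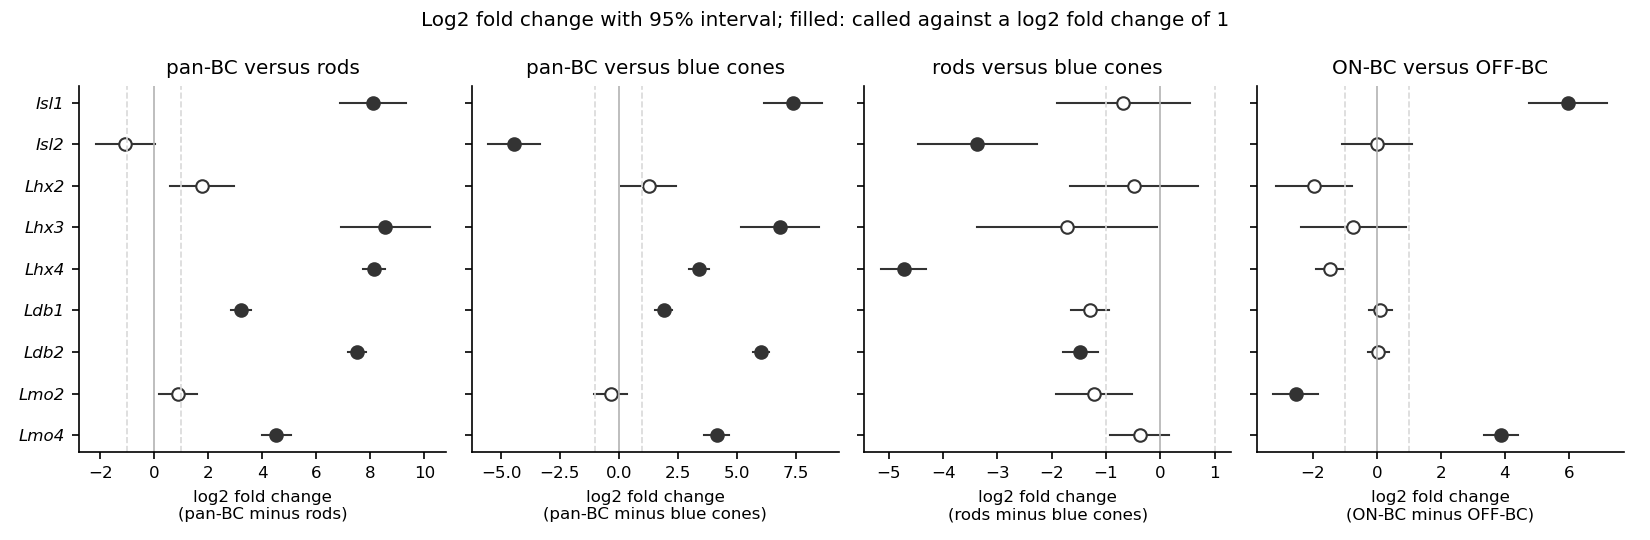
Log2 difference in RNA level with its 95% confidence interval for the 9 tested LIM genes in 4 comparisons of populations, with filled points for differences that passed the test against a log2 fold change of 1 (dashed lines). In ON-BC versus OFF-BC, Isl1 at 5.96 and Lmo4 at 3.87 lie on the ON side and Lmo2 at -2.52 on the OFF side, while Ldb1 and Ldb2 lie at 0.11 and 0.04.

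Counted over the comparisons, 6 of the 9 tested members passed as higher in pan-BC against rods and none as lower, against 27.8% of all 14024 genes tested that were higher and 43.6% that differed either way. Against blue cones, 7 of 9 passed, 6 of them higher in pan-BC (all genes: 36.3% either way and 22.7% higher). The 6 genes higher in pan-BC were Isl1, Lhx3, Lhx4, Ldb1, Ldb2 and Lmo4 in both comparisons, for which the pan-BC samples are shared. In ON-BC against OFF-BC 3 of 9 passed, with 6.55% of all genes, and between rods and blue cones 3 of 9 passed, all lower in rods, with 15.9% of all genes either way and 11.3% lower in rods. The median log2 difference of the 9 members was 4.52, 3.4, 0.0 and -1.29 in these 4 comparisons. The 0.0 between ON-BC and OFF-BC is the value of Isl2, which had 0 reads in those libraries. Isl2 passed the filter through its blue cone reads alone, and it is among the calls of pan-BC and of rods against blue cones. By role, the test separated the ON and OFF classes for 1 of 5 LIM-homeodomain factors, 0 of 2 LDB cofactors and 2 of 2 LMO proteins. A test against no change called 5 of the 9 members between ON-BC and OFF-BC, with Lhx2 and Lhx4 added, and 27.0% of all genes.

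The wider LIM pathway was read from a list of 18 further genes, of which 9 passed the filter on low counts. The other LIM-homeobox genes Lhx1, Lhx5, Lhx6, Lhx8, Lmx1a and Lmx1b were at or near 0, and none of the 6 could be tested. Among the 9 tested, 5 differed between pan-BC and rods (2 higher in pan-BC), 4 between pan-BC and blue cones (3 higher in pan-BC), 2 between ON-BC and OFF-BC and 1 between rods and blue cones, beside 43.6%, 36.3%, 6.55% and 15.9% of all genes. Both calls between ON-BC and OFF-BC were LMO genes, in opposite directions. Lmo1 had 266, 214 and 284 normalized counts in OFF-BC and 17.5, 15.7 and 8.21 in ON-BC, an 18.43-fold difference (log2 difference of ON-BC minus OFF-BC -4.16, SE 0.28, adjusted p = 3.67e-07, and -4.08 without OFF-BC replicate 3). Lmo3 had 144.5, 118 and 389 in ON-BC and 8.94, 1.20 and 11.03 in OFF-BC, a 30.74-fold difference (4.88, SE 0.59, adjusted p = 0.00013). It was 4.11 without OFF-BC replicate 2 (adjusted p = 0.000534) and 5.33 without OFF-BC replicate 3 (adjusted p = 0.000118). All 4 LMO genes thus differed between the classes, Lmo3 and Lmo4 on the ON side and Lmo1 and Lmo2 on the OFF side.

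In photoreceptors Lmo1 differed between rods and blue cones. It had 667, 823 and 728 normalized counts in rods and 18.1, 15.2 and 19.98 in blue cones, a 41.67-fold difference (log2 difference 5.31, adjusted p = 1.15e-09), and 45.7, 74.7 and 59.95 in pan-BC. Pan-BC had less Lmo1 than rods (-3.62, SE 0.28, adjusted p = 1.88e-07) and more than blue cones (1.69, adjusted p = 0.0363). The latter call was lost with a pseudocount of 8 (adjusted p = 0.131) and without pan-BC replicate 2 or 3 or blue cone replicate 1 or 2 (adjusted p = 0.0539 to 0.149). Lmo3 was at 0 in all 3 blue cone libraries and had 1 read in the 3 rod libraries together. Its pan-BC libraries, at 312, 603 and 503, had a mean above those of both ON-BC and OFF-BC, as did Lrrtm1, the marker of the BC5D type that both sorts left out (pan-BC 350 to 547, ON-BC 79.5 to 121.5, OFF-BC 56.5 to 116). The part of BC5D cells in the Lmo3 level was not tested. The LDB partners Ssbp2 and Ssbp3, which protect LDB proteins from turnover, differed in no comparison. Pan-BC had less Ssbp4 than rods (-2.21, adjusted p = 4.11e-05) and blue cones (-1.84, adjusted p = 0.00162), and less Rlim, the ubiquitin ligase of LDB cofactors, than rods (-1.7, adjusted p = 0.000202). Of the basic helix-loop-helix partners, pan-BC had more Tcf4 than rods (3.27, adjusted p = 4.31e-12) and blue cones (3.32, adjusted p = 1.32e-11), at 8344.5 to 9244 normalized counts, and Tal1 had no reads in any library.

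The genes whose levels ran most like a member's over the 15 libraries were ranked by Pearson's r of log2 levels, as a description, since the points share libraries. For Isl1 they were Lin7a (r = 0.998), Tanc1 (0.995) and Grm6 (0.993). For Lmo4 they were Vit (0.99), Col27a1 (0.988) and Gli2 (0.987), and for Lhx4 Sord (0.997), Gstm5 (0.994) and Sprn (0.993). For the other bipolar members the nearest genes were Atp2b3 for Lhx3 (0.991), Caskin1 for Ldb1 (0.994) and Gabrr1 for Ldb2 (0.998). The low members had looser neighbours, with Usp43 for Isl2 (0.976), Ptk2b for Lhx2 (0.934) and Nrp1 for Lmo2 (0.928). Between members, r was 0.98 for Isl1 with Lmo4 and for Ldb1 with Ldb2, 0.96 for Lhx4 with Ldb1 and for Lhx3 with Ldb2, and -0.38 for Lmo2 with Lmo4.

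Open chromatin was read at the 129 regions of the ATAC-seq table whose nearest curated RefSeq transcription start was that of a member. Isl1 had 23 of them, Ldb2 and Lmo4 24 each, Lhx4 20, Lhx2 14, Isl2 and Lhx3 6 each, and Lhx9, Ldb1 and Lmo2 4 each. A total of 16 lay at a promoter of the member itself, 78 regions lay outside curated transcripts, 42 in introns and 9 in exons. Pan-BC was higher than rods at 79 and lower at 5 of the 129 (all regions: 49.3% either way and 38.9% higher in pan-BC). Against cones, blue and green taken as 1 level, 36 were higher and 9 lower (all regions: 35.2% and 27.8%). Between ON-BC and OFF-BC 14 passed, 13 of them higher in ON-BC (all regions: 5.48% either way and 3.35% higher in ON-BC). The median log2 difference in these 3 comparisons was 3.15, 0.92 and 0.37 for the members' regions and 1.16, 0.46 and 0.15 for all regions.

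Isl1 had 8 of the 14 regions that passed between ON-BC and OFF-BC. All 23 of its regions had a positive log2 difference of ON-BC minus OFF-BC, with a median of 2.52. The promoter, centred at -76 bp from the start, had normalized counts of 302 and 343 in ON-BC, 267 and 365 in pan-BC, and 13.5 and 17.5 in OFF-BC, a log2 difference of 4.3 (SE 0.76, adjusted p = 0.00857). Rods had 0 and 1.36, blue cones 0 and 2.89, and green cones 6.92 and 5.63. The region at -9825 bp had 0 and 0.974 in OFF-BC against 62.7 and 83.5 in ON-BC, with at most 5.63 in photoreceptors (5.71, SE 0.85, adjusted p = 0.00206). The 8 calls were spread from -185970 bp to 566471 bp of the start. Not every region followed the promoter: the one at -199366 bp averaged 113.7 in OFF-BC against 242.3 in ON-BC, and the one at -179914 bp 46.9 against 56.2 (log2 differences 1.13 and 0.32, adjusted p = 1.0 for both). The count of 8 rested on single libraries. It fell without ON-BC replicate 1, ON-BC replicate 2 or OFF-BC replicate 1, and so did the count over all regions. Each of these 3 fits leaves 1 library in a group. The promoter's own call was lost in those 3 cases, with log2 differences of 4.39, 4.21 and 4.12. DESeq2 called 5 of the 23 regions, beside 3.93% of all regions.

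Against photoreceptors, all 23 Isl1 regions passed as higher in pan-BC against rods, and 17 passed as higher against cones, beside 38.9% and 27.8% of all regions. Peaks called in the single libraries overlapped 17 and 20 of the 23 in the pair of pan-BC libraries and again 17 and 20 for ON-BC, but 6 and 6 for OFF-BC and 0 for each rod and blue cone library. Of the 4 green cone peak sets, 1 had a single overlap and 3 had none. Peaks over the whole genome were 71698 and 94468 in pan-BC, 66147 and 69435 in ON-BC, and 60594 and 54772 in OFF-BC. They were fewer in rods (40829 and 44540), blue cones (39700 and 52066) and the green cone sets (29410 to 50585). The promoter itself held a peak in both pan-BC and both ON-BC libraries, with a fold enrichment of 14.6 to 16.7, and in no OFF-BC, rod or cone library.

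**Figure D3:**
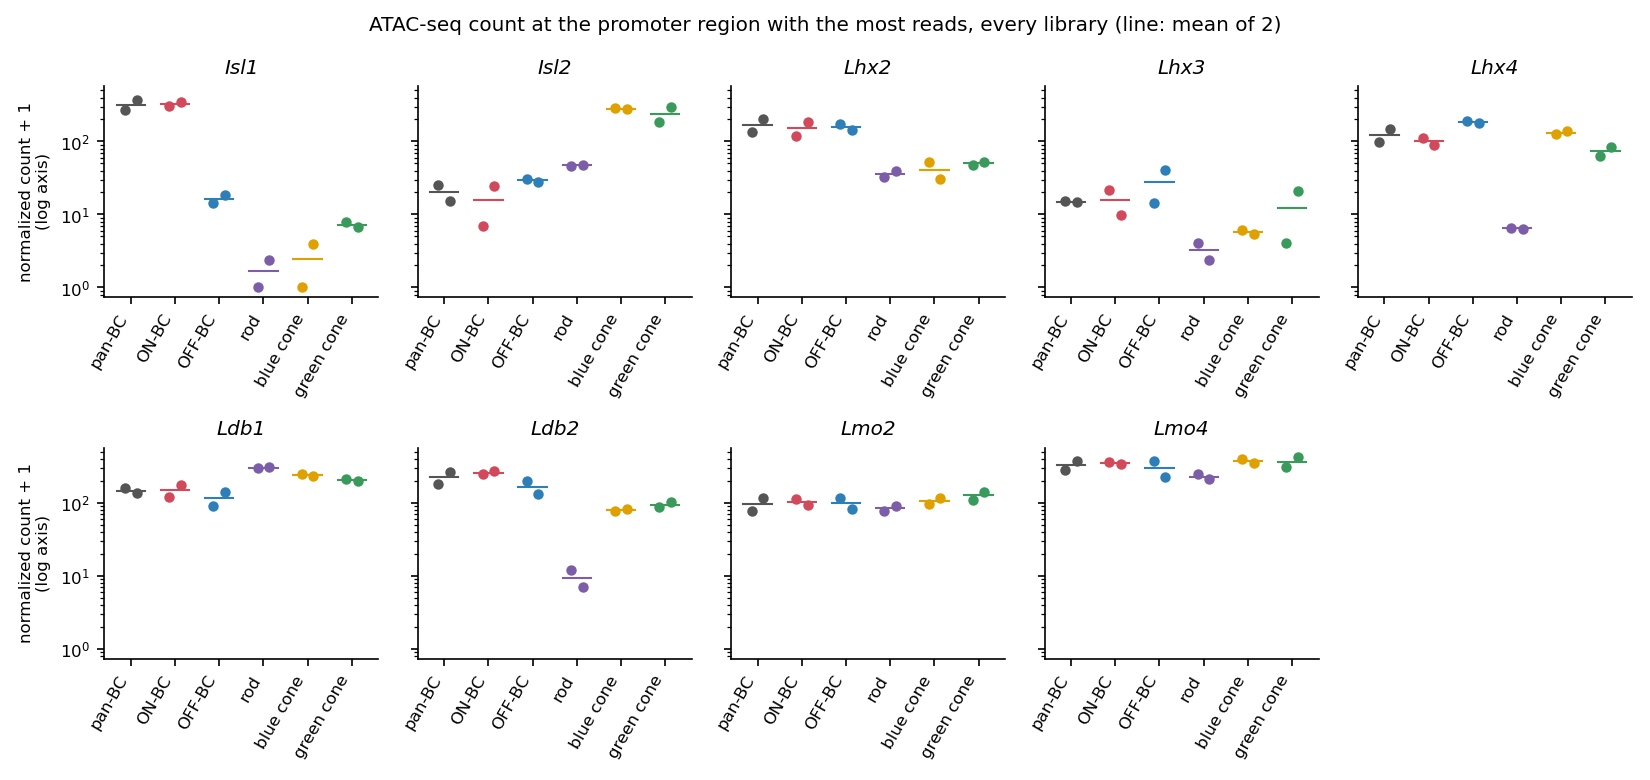
Normalized ATAC-seq count plus 1 (log axis) at the most-read promoter region of the LIM genes in each of the 12 libraries, by population, with points for libraries. The Isl1 promoter was at 302 and 343 in ON-BC and 13.5 and 17.5 in OFF-BC, whereas the most-read Lmo4 promoter region was at 211 or more in every library.

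None of the 3 Lmo4 promoter regions passed between ON-BC and OFF-BC. The most-read one (chr3:144205474-144205674, centred at -319 bp) was open in every population. Its normalized counts were 370.5 and 228 in OFF-BC, 359.8 and 338 in ON-BC, 313 to 424 in cones, and 246 and 211 in rods. Its log2 difference of ON-BC minus OFF-BC was 0.26 (SE 0.22, adjusted p = 1.0). The promoter region at -34 bp was less even. ON-BC libraries read 168.7 and 92.24 there, without overlap with the OFF-BC libraries, which read 75.44 and 26.28. Rod values were 7.788 and 6.776, and cone values ran from 23.31 to 50.7. At 54 bp the ON-BC and OFF-BC values overlapped. The 2 Lmo4 regions that passed were named after their values were seen or by their smallest p, and both lie beyond the end of the gene, outside curated transcripts. The region at 35508 bp had 26.9 and 42.5 in ON-BC, 6.40 and 9.69 in pan-BC, and 0 in both OFF-BC libraries (5.12, SE 0.86, adjusted p = 0.00499). The region at 60309 bp had 48.5 and 29.2 in OFF-BC against 340.4 and 334 in ON-BC, with at most 5.63 in photoreceptors (3.13, SE 0.58, adjusted p = 0.0239). The second call was lost without any of the 4 ON-BC and OFF-BC libraries and without pan-BC replicate 2 (adjusted p = 0.051 to 0.177). Across its 24 regions, 20 passed as higher in pan-BC against rods and none as lower, beside 38.9% of all regions higher.

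Lhx4 had the only member region that was lower in ON-BC than in OFF-BC. That region, at 86920 bp downstream of the start in an Acbd6 intron, had 14.9 and 19.0 normalized counts in ON-BC, 48.0 and 63.9 in pan-BC, and 164 and 139 in OFF-BC (log2 difference -3.09, SE 0.32, adjusted p = 0.000715). Its highest values were in cones, at 418 and 350.5 in blue and 211 and 227 in green cones, while rods had 18.7 and 21.7. Among the bipolar populations, the order OFF-BC above pan-BC above ON-BC was also that of the Lhx4 RNA. Blue cones broke the match, since they were highest at this region but below ON-BC in Lhx4 RNA. A second region, at 48802 bp and named after its values were seen, went the other way, with 4.04 and 4.87 in OFF-BC against at least 96.6 in ON-BC, and at most 3.07 in photoreceptors (4.19, SE 0.81, adjusted p = 0.0156). That second call was lost without any 1 of the ON-BC or OFF-BC libraries (adjusted p = 0.058 to 0.1). The Lhx4 promoter (chr1:155742047-155742247, centred at -120 bp) had 187 and 178 in OFF-BC, 110.5 and 89.3 in ON-BC, 124 and 137 in blue cones, and 5.45 and 5.42 in rods. It was higher in pan-BC, at 96.0 and 145, than in rods (4.21, SE 0.35, adjusted p = 6.01e-07), and the difference from cones was 0.29 (adjusted p = 1.0).

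**Figure D4:**
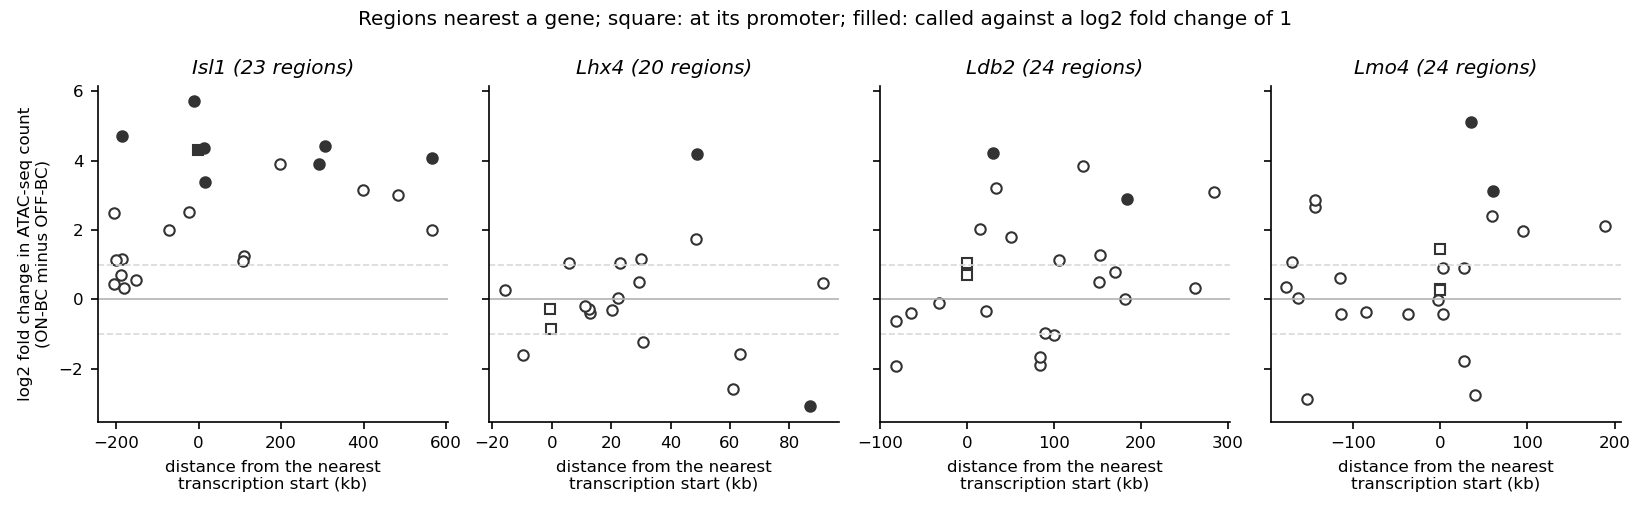
Log2 difference in ATAC-seq count (ON-BC minus OFF-BC) of each region nearest Isl1, Lhx4, Ldb2 or Lmo4 against its distance from the nearest transcription start in kb, with squares for promoter regions and filled symbols for regions that passed the test against a log2 fold change of 1. All 23 Isl1 points lie above 0, whereas the other 3 genes have regions on both sides.

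The promoter of Ldb2 (chr5:44799585-44799785) matched its RNA against rods. It had 197 and 130.4 normalized counts in OFF-BC, 245 and 274 in ON-BC, 183 and 265 in pan-BC, 77.7 to 101.4 in cones, and 10.9 and 6.10 in rods. Pan-BC was higher than rods (log2 difference 4.59, SE 0.3, adjusted p = 3.69e-08), and against cones the difference of 1.35 did not pass (adjusted p = 0.214). Although Ldb2 RNA was close in ON-BC and OFF-BC, 2 regions in its introns were higher in ON-BC. At 30037 bp there were 31.4 and 51.3 normalized counts in ON-BC and 0 and 3.89 in OFF-BC (4.22, SE 0.94, adjusted p = 0.0328). At 183543 bp, a region named after its values were seen, there were 181 and 231 against 29.6 and 24.3 (2.88, SE 0.56, adjusted p = 0.035). Both calls were lost without ON-BC replicate 1, ON-BC replicate 2 or OFF-BC replicate 1, the second also without OFF-BC replicate 2 or either pan-BC library (adjusted p = 0.0675 to 0.336 in all). The first difference ranged from 3.07 without OFF-BC replicate 1 to 5.36 without OFF-BC replicate 2, and edgeR (adjusted p = 0.0528) and DESeq2 (0.114) did not call it. The Ldb1 promoter, in contrast, was open in all populations, at 90.3 to 176 in bipolar cells and 197 to 308 in photoreceptors.

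The Isl2 promoter (chr9:55541003-55541203, centred at -46 bp) was open in cones and weak elsewhere. Blue cones had 282 and 276 normalized counts, green cones 181 and 296, rods 45.2 and 46.8, and the 6 bipolar libraries 5.97 to 29.6. Cones were higher than pan-BC (log2 difference of pan-BC minus cones -3.71, SE 0.39, adjusted p = 3.16e-05). The region at 5210 bp lies inside the gene span given for Isl2 but outside curated transcripts. It was most open in rods, at 98.1 and 117 against 3.42 and 9.60 in pan-BC (-3.98, SE 0.68, and -4.61 or -3.35 without pan-BC replicate 1 or 2, adjusted p = 0.000687 with all libraries) and 9.40 to 32.3 in cones, although the Isl2 RNA in rods was at most 2.16 normalized counts.

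The remaining members gave few region calls. The Lhx2 promoter had 119 to 202 normalized counts in bipolar cells and 29.6 to 52.1 in photoreceptors, with a log2 difference of 2.19 between pan-BC and rods (SE 0.32, adjusted p = 0.00258). The Lhx3 promoter had 8.79 to 39.9 in bipolar cells and 1.36 to 19.7 in photoreceptors, and no comparison passed. Among all 6 Lhx3 regions, 2 passed as more open in pan-BC when set against rods, and 1 when set against cones. The difference was positive at 5 of the 6 in each comparison, with medians of 1.64 and 0.56. At 31079 bp, pan-BC libraries read 42.41 and 42.76, rods 2.336 and 1.355, and cones 1.295 to 9.221. The region at -7501 bp from Lhx3, in an intron of Qsox2, went the other way. It was higher in photoreceptors, at 74.5 to 124 against 12.8 and 23.95 in pan-BC (pan-BC minus rods -2.66, adjusted p = 0.00431). The call was lost without pan-BC replicate 1 (-2.24, adjusted p = 0.0552), and that against cones (-2.15, adjusted p = 0.0227) without pan-BC replicate 1 (0.227) or with blue (0.0633) or green cones alone (0.0561). The Lmo2 promoter was open in all 12 libraries, at 76.3 to 142, and none of the 4 Lmo2 regions passed in any of the 3 comparisons. Lhx9 was nearly without RNA, yet the region at -1163 bp from its nearest curated start, named after its values were seen, had 267 and 222 normalized counts in rods, 130 to 157 in cones and at most 60.4 in bipolar cells (pan-BC minus rods -3.5, SE 0.28, adjusted p = 1.02e-06). That region is centred inside the gene span given for Lhx9.

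Motif letters were counted in all regions, each 201 bases long. TAATCC or GGATTA was in 28 of the 129 members' regions (21.7%) and in 21.8% of all 110715 regions. TAATTA was in 10 (7.75%) and 5.22%, TAATTG or CAATTA in 10 (7.75%) and 6.91%, and CANNTG in 77 (59.7%) and 68.9%. Of the 23 Isl1 regions, 5 held TAATCC or GGATTA, and of the 24 Lmo4 regions 6. The RefSeq promoter windows (GRCm38.p6) of 8 members numbered 14. The TAATCC letters were in 1 of them, for Isl1, and the TAATTG letters in 2, both for Ldb1. Of the 32851 windows of all genes, 7.06% and 8.0% hold these letters. TAATTA was in 0 of the 14 (all windows: 5.29%) and CANNTG in 7 (all windows: 72.3%).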

How the data were processed

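RNA-seq (SMARTer Ultra Low kit) and ATAC-seq libraries of FACS-sorted cells were aligned to mm10 by the authors, with STAR and HTSeq for RNA and Bowtie2, SAMtools, Picard and MACS2 for ATAC-seq per the labels. The tables that the authors deposited hold a signal: read counts divided by 1 size factor per library. Whole reads were recovered from the steps of each library for 100.0% of the values above 0, within 0.01 reads. The peak lists that the authors deposited, called per library, hold fold enrichment (a ratio) and -log10 q values, and only the peaks' positions and fold enrichment were read here.

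Genes and regions passing edgeR's filterByExpr (14024 of 24062 genes and 108448 of 110715 regions) were fitted in R 4.3.3 with limma 3.58.1 on log2(value + 1), all 15 RNA-seq and all 12 ATAC-seq libraries in 1 fit each. limma's treat tested against a log2 fold change of 1, with Benjamini-Hochberg adjustment over all features. Fold changes of low genes are understated on this scale, and linear folds are ratios of mean normalized counts. edgeR 4.0.16 and DESeq2 1.42.0 on the recovered reads, a pseudocount of 8, no filter, a test against no change, a replicate block and leaving out each library were alternatives. The cone level from blue or green cones alone was added after seeing the data. RPKM used the recovered reads and RefSeq exon lengths. On simulated ON-BC versus OFF-BC counts for 14024 genes, 82 of 100 genes changed 4-fold and 98 of 100 changed 16-fold were called. For 108448 regions, the numbers were 10 and 76. Apart from the changed features, every population was simulated at the same mean, so blue and green cones did not differ. Recovery where the populations differ, as in the real tables, was not measured.

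Regions were assigned to the nearest start of 45756 curated RefSeq transcripts (GRCm38.p6), with promoters from 1000 bp before to 100 bp after it. The text names all 10 members, the list of further LIM genes, the 3 most correlated genes per tested member (some given by the first alone), and per member the most-read promoter region and the region of smallest p between ON-BC and OFF-BC. Members and lists were chosen with earlier results of these data known. The main fit used no block, since the study's methods describe none. Same-numbered ON-BC and OFF-BC libraries had deviations correlated at -0.076, 0.222 and -0.065. With so few libraries a class, these correlations cannot decide whether the libraries are paired. RefSeq promoter windows matched 8 of the 10 members, not Ldb2 and Lmo2. The blue cones' and rods' libraries were re-used by the authors from an earlier study. Double-sorted green cones were read from peak lists only.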

Additional observations from a re-analysis of the deposited data

How the results depend on the processing

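The test against no change called 5 members between ON-BC and OFF-BC in place of 3, and 5 between rods and blue cones in place of 3, where DESeq2 called 1 (27.0%, 57.5% and 15.3% of all genes). It also called 36 members' regions between ON-BC and OFF-BC in place of 14 and 81 between pan-BC and cones in place of 45 (19.4% and 62.1% of all regions). Leaving out 1 library gave 6 members for pan-BC versus rods, 7 for pan-BC versus blue cones, 3 to 4 for ON-BC versus OFF-BC and 2 to 4 for rods versus blue cones, and 3 to 16, 71 to 86 and 32 to 47 regions for ON-BC versus OFF-BC, pan-BC versus rods and pan-BC versus cones. With 2 ATAC-seq libraries a group, the ON-BC versus OFF-BC regions thus depend on single libraries, as does the count over all regions. A replicate block over ON-BC and OFF-BC alone called 4 members, with Lhx4 at adjusted p = 0.0424, beside 6.47% of all genes. The block over all libraries called 3. Same-numbered ON-BC and OFF-BC libraries have the same postnatal day. The correlations did not show pairing, but with so few libraries they cannot exclude it.

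Signs changed for differences near 0. Leaving out 1 library moved Ldb2 between ON-BC and OFF-BC from -0.06 to 0.16 and Tcf4 between rods and blue cones from -0.03 to 0.16. At promoter regions between ON-BC and OFF-BC, the range was -0.39 to 0.24 for Lhx2, -1.48 to 0.02 for Lhx3, -0.18 to 0.34 for Lmo2 (-0.15 in edgeR) and -0.09 to 0.61 for Lmo4. For pan-BC against rods it was -0.11 to 0.46 for Lmo2 (-0.02 in edgeR), and against cones -0.01 to 0.59 for Lhx4 (-0.02 in edgeR and -0.14 with blue cones alone) and -0.39 to 0.03 for Lmo4. Of 1246 gene differences under all alternatives, 1216 kept their direction and side of the threshold, and of 1288 region differences 1206 did. The causes were not tested.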
